A study of Homo sapiens with 4 samples.

Results

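The genes described here are 38 of the 35211 genes in the deposited count table. They were chosen by name as members of the NRF2 antioxidant pathway, of glutathione and thioredoxin metabolism, of the pentose phosphate pathway, of iron handling and of the lipid peroxidation that drives ferroptosis, and all 38 had a row. RNA was sequenced after depletion of ribosomal RNA in 4 libraries of PC3 and DU145, established human prostate cancer cell lines that grow without androgen. The groups were PC3 cells with a circ0003553 overexpression plasmid, PC3 cells with a negative control plasmid, DU145 cells with the circ0003553 plasmid and DU145 cells with the control plasmid. Each group held 1 library, and every library came from transfected cells, so no untransfected cells were compared. circ0003553 is a circular RNA, and the titles of the samples carry the gene name RCAN3. The labels give no promoter for the plasmids, no dose and no time after transfection, and nothing says how many cultures a library came from. P-values therefore do not measure the spread between replicates of a group, since there are none. They rest mostly on how genes in general varied in these libraries.

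NRF2, the product of NFE2L2, is a transcription factor that KEAP1 holds for degradation through a CUL3 ubiquitin ligase. When oxidants or electrophiles modify KEAP1, NRF2 accumulates, pairs with small MAF proteins and activates genes that carry an antioxidant response element, many of which make or recycle glutathione, thioredoxin and NADPH. Ferroptosis is a form of cell death through iron-dependent peroxidation of membrane lipids, which GPX4 counteracts with glutathione. In prostate cancer this biology is best known through GSTP1, whose promoter is often silenced by methylation in tumours.

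The libraries held 33438509 to 39488890 counts assigned to genes, of which the 38 genes took 0.447% and 0.423% in the PC3 circ0003553 and control libraries and 0.641% and 0.682% in the DU145 circ0003553 and control libraries. Summed over EPCAM, KRT8, KRT18 and CDH1, epithelial markers stood at 189 and 193 RPKM (counts per kilobase of exon, scaled to the library's total) in the PC3 circ0003553 and control libraries, against 902 and 807 RPKM in those of DU145, and CDH1 was the low one in PC3, with 108 and 84 counts in PC3 circ0003553 and control, against 2478 and 4821 counts in those of DU145. STAT3 and CTNNA1, which PC3 is known to have lost, were at 6 and 2 and at 212 and 139 counts in the PC3 circ0003553 and control libraries, against 6160 and 7479 and 15131 and 15074 counts in those of DU145. Summed over their lists, markers of leukocytes and of liver stayed under 1 RPKM in every library, while those of fibroblasts, nearly all COL1A1, stood at 4.01 and 3.58 RPKM in PC3 circ0003553 and control, against 0.356 and 0.588 RPKM in those of DU145. Those of endothelium, in PC3 nearly all PECAM1, stood at 1.94 and 2.27 RPKM in PC3 circ0003553 and control, against 0.105 and 0.0653 RPKM in those of DU145, with DCN, LUM, VWF and CDH5 at 14 counts or fewer in every library. These lists move with the line comparison, and their part in it was not tested. Low counts were mostly even (70.3% to 75.3% of values from 1 to 20), as when a read pair is counted as 2, so the intervals of plasmid ratios below come from halved counts.

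Expressed per length, FTH1, the heavy chain of the iron store ferritin, had the highest level of the members, at 484 and 427 RPKM in the PC3 circ0003553 and control libraries and at 460 and 554 RPKM in those of DU145. TXNRD1, GPX4, PRDX1 and TXN followed, with means over the 4 libraries of 249, 194, 177 and 103 RPKM. The lowest were ALOX5, SLC40A1, AKR1C2, GPX2, AKR1C1 and AKR1B10, each with a mean under 1 RPKM. ALOX5, the lipoxygenase that starts leukotriene synthesis, had 11, 2, 3 and 2 counts in the PC3 circ0003553, PC3 control, DU145 circ0003553 and DU145 control libraries and failed the filter on low counts, which the other 37 passed. Exon bases of 16 of the 38 members are shared with another gene, and the counts may then hold reads of both. The overlap was widest for SRXN1 with an unnamed gene on its own strand (85% of its exon bases), LPCAT3 with EMG1 (65.6%), FTH1 with BEST1 (62.4%) and CBR3 with CBR3-AS1 (42.2%). BEST1, on the other strand, had 33464 and 25132 counts in the PC3 circ0003553 and control libraries, beside 38822 and 28955 for FTH1. In those of DU145 it had 29568 and 35685 counts, beside 34033 and 42801 for FTH1. How many reads the 2 genes have in common was not tested.

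**Figure D1:**
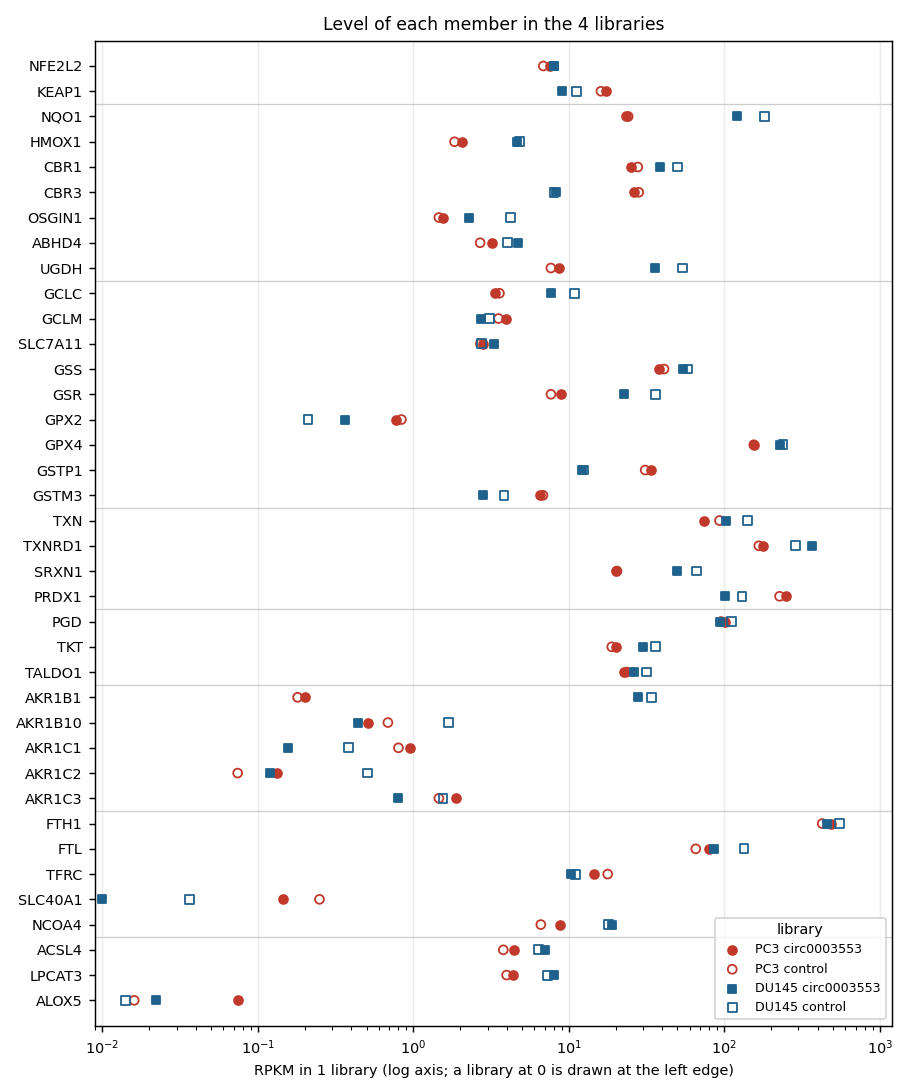
Level of each of the 38 members in the 4 libraries, as deposited RPKM on a log axis. Red circles are PC3 and blue squares DU145, filled for circ0003553 and open for control; gray lines separate the roles in which the genes are described, from NFE2L2 and KEAP1 at the top to lipid peroxidation at the bottom. AKR1B1 lies near 0.2 RPKM in PC3 and near 30 RPKM in DU145, and the PC3 and DU145 symbols of NQO1, UGDH and GSR do not meet.

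The first comparison set PC3 against DU145, each with its circ0003553 and its control library. The members were mostly lower in PC3: of 37 tested, 21 were lower and 11 higher in PC3 and 5 were not called (edgeR's quasi-likelihood test with the plasmid as a covariate, adjusted p under 0.05 over 21731 genes). The lines differed at most genes, since 65.9% of all genes tested were called, 33.1% higher and 32.8% lower in PC3, and among the 8188 genes whose mean log2 CPM reached 4 it was 74.4%. Among the members 86.5% were called, with 29.7% higher and 56.8% lower in PC3. The median log2 fold change was -0.50 over the members and 0.000991 over all genes. A call with at least a 2-fold difference was made for 16 members, 7 higher and 9 lower in PC3, which is 43.2% of those tested, against 37.7% of all genes. At a mean log2 CPM of 4 or more it was 39.3% of 28 members, against 25.9% of genes. SLC40A1 is in these counts although no DU145 library reached the filter's 0.268 CPM; without it 31 of 36 members were called, 10 higher and 21 lower in PC3, 15 of them at least 2-fold. With 4 libraries the fit keeps 1 residual degree of freedom, and the prior taken from the other genes adds 13.4, so each standard error (SE) leans on how genes in general varied. As no group has a replicate, that 1 degree of freedom holds how far the plasmid difference departs from being equal in both lines. The SE is not a spread between replicates.

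NFE2L2 itself, on chromosome 2, did not pass the test. It had 7.61 and 6.86 RPKM in the PC3 circ0003553 and control libraries, against 8.01 and 8.04 RPKM in the DU145 circ0003553 and control libraries, a log2 fold change of -0.08 ± 0.10 (SE, n = 2 libraries per line; adjusted p = 0.513, edgeR's quasi-likelihood test). In RPKM, which is scaled to library totals and not by TMM as in the test, both PC3 values lay below both DU145 values. With total counts in place of TMM the log2 fold change was -0.15. Overlap of members is judged on RPKM here and below. The libraries of the lines did not overlap for 31 of 37 members, against 81.9% of all genes tested. KEAP1, which marks NRF2 for degradation, was higher in PC3, with 17.3 and 16.1 RPKM in the PC3 circ0003553 and control libraries, against 9.11 and 11.2 RPKM in those of DU145. The log2 fold change of KEAP1 was 0.80 ± 0.11 (adjusted p = 1.63e-05), and the groups did not overlap. Inside each library the KEAP1 level was 2.28 and 2.35 times the NFE2L2 level in PC3 circ0003553 and control, and 1.14 and 1.39 times in DU145 circ0003553 and control.

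**Figure D2:**
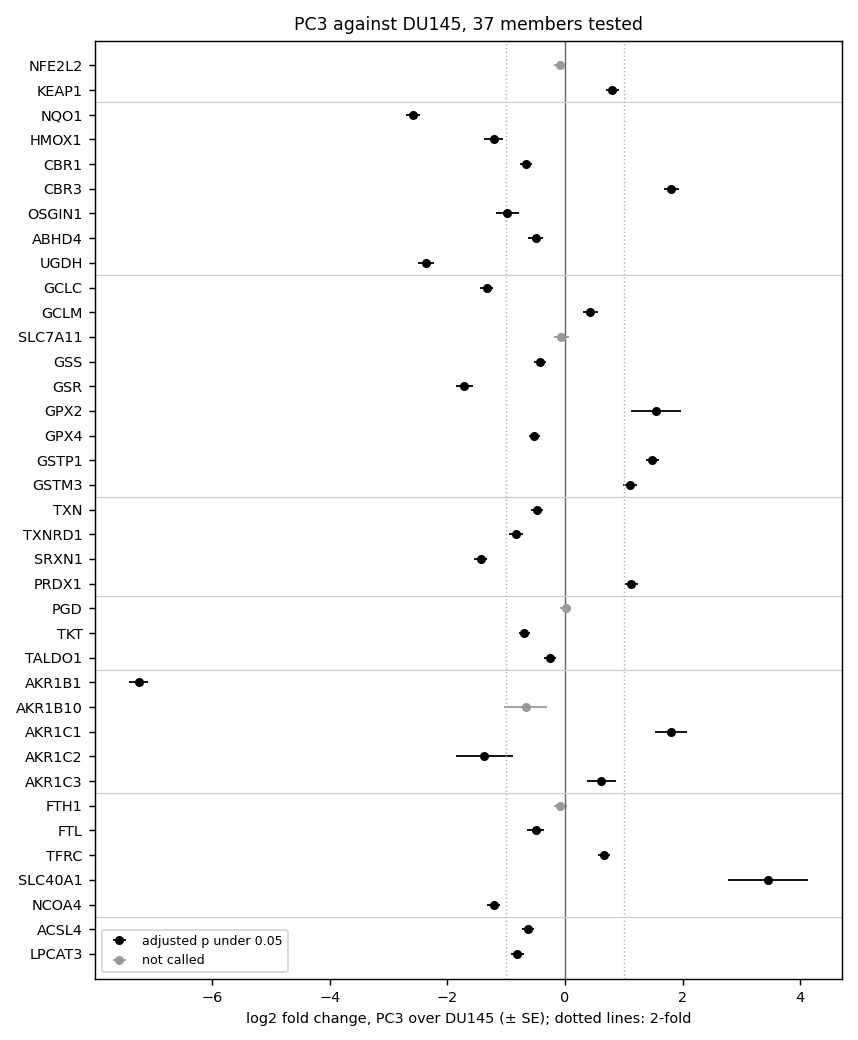
Fitted log2 fold change of PC3 over DU145 with its SE for the 37 members tested, grouped by role. Black points passed an adjusted p of 0.05, gray points did not, and dotted lines mark 2-fold; AKR1B1 lies at -7.25 and SLC40A1 at 3.46.

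The core letters of the antioxidant response element, TGACNNNGC or GCNNNGTCA on the other strand, were searched for in the 250 bases before each gene's start, taken from RefSeq (GRCh38.p14). Windows were found for 29 members, and 8 of their 37 windows (21.6%) held the letters, against 3830 of 35116 windows of all genes (10.9%). By gene, the letters stood before 4 of the 9 members with a window that were higher in PC3 (KEAP1, GCLM, GPX2, GSTP1) and before 2 of the 18 that were lower (CBR1, TXNRD1), as well as before PGD, which was not called. These 6 called genes are shown because they are the ones in which the letters can be set beside a difference between the lines. Each line gives a window 5′ to 3′ on the gene's strand, with the matched letters in capitals.
KEAP1 (chr19:10502772-10503021, minus strand): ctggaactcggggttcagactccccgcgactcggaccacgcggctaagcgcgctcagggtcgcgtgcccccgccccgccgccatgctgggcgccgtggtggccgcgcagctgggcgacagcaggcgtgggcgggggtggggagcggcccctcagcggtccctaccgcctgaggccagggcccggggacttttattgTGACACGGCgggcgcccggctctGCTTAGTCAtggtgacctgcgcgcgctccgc
GCLM (chr1:93909431-93909680, minus strand): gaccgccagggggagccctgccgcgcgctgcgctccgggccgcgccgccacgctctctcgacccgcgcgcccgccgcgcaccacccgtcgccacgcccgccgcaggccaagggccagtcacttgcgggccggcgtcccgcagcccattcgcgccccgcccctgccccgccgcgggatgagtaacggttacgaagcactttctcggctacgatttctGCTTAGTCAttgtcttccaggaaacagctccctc
GPX2 (chr14:64942746-64942995, minus strand): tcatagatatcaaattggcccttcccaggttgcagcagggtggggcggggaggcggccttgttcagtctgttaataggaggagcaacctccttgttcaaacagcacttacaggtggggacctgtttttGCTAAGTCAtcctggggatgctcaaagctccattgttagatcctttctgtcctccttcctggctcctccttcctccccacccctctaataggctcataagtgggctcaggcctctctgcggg
GSTP1 (chr11:67583562-67583811, plus strand): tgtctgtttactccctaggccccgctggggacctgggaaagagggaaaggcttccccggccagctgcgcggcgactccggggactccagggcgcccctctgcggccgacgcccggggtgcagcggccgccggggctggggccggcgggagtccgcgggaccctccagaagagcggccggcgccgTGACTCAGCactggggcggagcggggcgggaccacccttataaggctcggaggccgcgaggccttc
CBR1 (chr21:36069774-36070023, plus strand): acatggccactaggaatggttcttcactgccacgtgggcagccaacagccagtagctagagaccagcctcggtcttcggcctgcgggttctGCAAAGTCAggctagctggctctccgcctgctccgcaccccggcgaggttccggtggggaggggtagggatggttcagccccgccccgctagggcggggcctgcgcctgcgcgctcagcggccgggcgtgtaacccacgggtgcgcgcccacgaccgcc
TXNRD1 (chr12:104286782-104287031, plus strand): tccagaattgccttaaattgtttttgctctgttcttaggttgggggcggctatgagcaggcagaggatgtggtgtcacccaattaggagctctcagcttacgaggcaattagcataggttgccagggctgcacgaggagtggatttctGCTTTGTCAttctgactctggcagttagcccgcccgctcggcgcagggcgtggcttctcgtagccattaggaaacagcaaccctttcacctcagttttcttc
KEAP1 has a second window, with no match. In the KEAP1 window shown the matches began 54 and 31 bases before the start, and the second of them, GCTTAGTCA, has the same letters as the match before GCLM. The other TXNRD1 window, before the gene's first start, held TGACTTCGC, beginning 99 bases before that start. NQO1, UGDH, AKR1B1, GCLC, SRXN1, AKR1C2 and NCOA4, which were at least 2-fold lower in PC3, had no match in their windows. No window was used for HMOX1, CBR3, SLC7A11, GSS, GSR, PRDX1, AKR1B10, FTH1 and ALOX5. A match is a description of letters and does not show that a factor binds there. Only 250 bases were searched, so a window without a match does not show that a gene lacks the element. The share over all genes was counted by window and not by gene.

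Enzymes that detoxify quinones, heme and carbonyls were lower in PC3 in 6 of 7 cases, and 1 was higher. Counts by role, here and below, stand beside 32.8% lower and 33.1% higher among all genes tested. NQO1, the quinone reductase most often used to read out NRF2 activity, had 23.2 and 24.1 RPKM in the PC3 circ0003553 and control libraries, against 121 and 182 RPKM in those of DU145. It was 5.98-fold lower in PC3 (log2 fold change -2.58 ± 0.12, SE, n = 2 libraries per line; adjusted p = 1.1e-10, edgeR's quasi-likelihood test). UGDH, which makes UDP-glucuronate for conjugation, had 8.68 and 7.67 RPKM in PC3 circ0003553 and control, against 35.8 and 54.2 RPKM in DU145 circ0003553 and control. In both genes the DU145 control library was the highest of the 4 and the PC3 libraries lay close together. UGDH was 5.13-fold lower in PC3 (-2.36 ± 0.14, adjusted p = 1.68e-09).

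HMOX1, which opens the heme ring and frees its iron, had 2.06 and 1.84 RPKM in the PC3 circ0003553 and control libraries, against 4.64 and 4.83 RPKM in those of DU145. The groups did not overlap, and HMOX1 was 2.31-fold lower in PC3 (log2 fold change -1.21 ± 0.16, SE, n = 2 libraries per line; adjusted p = 1.19e-05, edgeR's quasi-likelihood test). The carbonyl reductases CBR1 and CBR3, neighbours on chromosome 21, differed in opposite directions. CBR3 had 26.1 and 28.2 RPKM in PC3 circ0003553 and control, against 8.23 and 8.03 RPKM in DU145 circ0003553 and control, and was 3.50-fold higher in PC3 (1.81 ± 0.13, adjusted p = 9.85e-09). CBR1 was lower in PC3 at -0.66 ± 0.10 (adjusted p = 3.79e-05). CBR3-AS1, the antisense gene that shares exon bases with CBR3, had 825 and 748 counts in PC3 circ0003553 and control, against 246 and 252 counts in those of DU145, and reads of the pair cannot be told apart without strand. OSGIN1, an oxidative stress-induced growth inhibitor, and ABHD4, a lipid hydrolase, were lower in PC3 at -0.98 ± 0.20 and -0.50 ± 0.13. OSGIN1 was -0.55 without the DU145 control library and -1.39 without the DU145 circ0003553 library, and stayed called. ABHD4 lost its call without the PC3 control library (-0.39, adjusted p = 0.134), without the DU145 circ0003553 library (-0.35, 0.0739) and with DESeq2 (0.0596).

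Among 9 genes of glutathione metabolism 4 were lower and 4 higher in PC3, and 1 was not called. Glutathione is made by glutamate-cysteine ligase, with the catalytic subunit GCLC and the modifier GCLM, and then by GSS. GCLC had 3.33 and 3.58 RPKM in the PC3 circ0003553 and control libraries, against 7.67 and 10.9 RPKM in those of DU145, and was 2.52-fold lower in PC3 (log2 fold change -1.33 ± 0.11, SE, n = 2 libraries per line; adjusted p = 7.51e-08, edgeR's quasi-likelihood test). GCLM went the other way, at 0.43 ± 0.13 (adjusted p = 0.00842), a call lost without the PC3 circ0003553 library (0.36, adjusted p = 0.136) and with DESeq2 (0.108). The GCLC level was 0.847 and 1.01 times the GCLM level in PC3 circ0003553 and control, against 2.81 and 3.50 times in DU145 circ0003553 and control. GSS was lower in PC3 (-0.43 ± 0.10, adjusted p = 0.0012), and its call was lost without the PC3 circ0003553 library (-0.37, adjusted p = 0.0704).

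GSR, which reduces oxidised glutathione with NADPH, had 8.97 and 7.68 RPKM in the PC3 circ0003553 and control libraries, against 22.8 and 36.0 RPKM in those of DU145. It was 3.28-fold lower in PC3 (log2 fold change -1.71 ± 0.15, SE, n = 2 libraries per line; adjusted p = 1.28e-07, edgeR's quasi-likelihood test). SLC7A11, the cystine importer that feeds glutathione synthesis, had 2.79 and 2.70 RPKM in PC3 circ0003553 and control, against 3.31 and 2.74 RPKM in DU145 circ0003553 and control. Its groups overlapped, and it was not called (-0.06 ± 0.12, adjusted p = 0.649), with a value of 0.10 without the DU145 circ0003553 library. GPX4, the peroxidase that reduces lipid hydroperoxides in membranes, had 155 RPKM in each PC3 library, against 228 and 239 RPKM in the DU145 circ0003553 and control libraries. GPX4 was 1.43-fold lower in PC3 (-0.52 ± 0.10, adjusted p = 0.000252), and its groups did not overlap.

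Besides GCLM, the glutathione transferases GSTP1 and GSTM3, which join glutathione to electrophiles, and GPX2 were higher in PC3. GSTP1 had 34.0 and 31.0 RPKM in the PC3 circ0003553 and control libraries, against 12.1 and 12.4 RPKM in those of DU145, a 2.79-fold difference (log2 fold change 1.48 ± 0.11, SE, n = 2 libraries per line; adjusted p = 1.36e-08, edgeR's quasi-likelihood test). GSTM3 had 6.57 and 6.82 RPKM in PC3 circ0003553 and control, against 2.81 and 3.83 RPKM in DU145 circ0003553 and control, and was 2.14-fold higher in PC3 (1.10 ± 0.12, adjusted p = 1.86e-06). Neither gene's groups overlapped, and within a line the plasmids lay close together for GSTP1. GPX2, a glutathione peroxidase of epithelia, was low throughout, with 46 and 42 counts in PC3 circ0003553 and control, against 20 and 12 counts in those of DU145. Its log2 fold change was 1.55 ± 0.42 (adjusted p = 0.00468), a call that DESeq2 did not make (adjusted p = 0.153).

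All 4 thioredoxin and peroxiredoxin genes were called, 3 lower and 1 higher in PC3, against 65.9% called among all genes tested. SRXN1, which reactivates overoxidised peroxiredoxins, had 2142 and 1842 counts in the PC3 circ0003553 and control libraries, against 4923 and 6789 counts in those of DU145, and was 2.70-fold lower in PC3 (log2 fold change -1.43 ± 0.11, SE, n = 2 libraries per line; adjusted p = 1.87e-08, edgeR's quasi-likelihood test). PRDX1, a peroxiredoxin that removes hydrogen peroxide, had 250 and 227 RPKM in PC3 circ0003553 and control, against 101 and 130 RPKM in DU145 circ0003553 and control. PRDX1 was 2.18-fold higher in PC3 (1.13 ± 0.11, adjusted p = 4.84e-07), while its repair enzyme SRXN1 was lower. The gene that overlaps SRXN1 had 1973 and 1694 counts in PC3 circ0003553 and control, against 4577 and 6298 counts in those of DU145, and MMACHC, which shares 24.9% of the PRDX1 exon bases, had 2445 and 2105 counts in PC3 circ0003553 and control, against 1020 and 1411 counts in those of DU145. Their part in the SRXN1 and PRDX1 values was not tested. TXNRD1, the reductase of thioredoxin, was lower in PC3 at -0.84 ± 0.12 (adjusted p = 1.49e-05), and TXN, the thioredoxin itself, at -0.48 ± 0.10 (0.00048). TXN lost its call without the PC3 circ0003553 library (-0.31, adjusted p = 0.192) and without the DU145 control library (-0.26, 0.134).

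The pentose phosphate pathway supplies the NADPH that these reductases use. PGD, which yields NADPH, had 101 and 95.4 RPKM in the PC3 circ0003553 and control libraries, against 94.2 and 111 RPKM in those of DU145, and was not called (log2 fold change 0.01 ± 0.10, SE, n = 2 libraries per line; adjusted p = 0.958, edgeR's quasi-likelihood test). Of the enzymes of the branch without oxidation, TKT was lower in PC3 at -0.69 ± 0.10 (adjusted p = 2.86e-05) and TALDO1 at -0.25 ± 0.10 (0.0402). TALDO1 lost its call in 7 of 12 alternatives, among them without the PC3 circ0003553, the PC3 control or the DU145 control library (-0.21, -0.30 and -0.13).

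The aldo-keto reductases, which reduce aldehydes and steroids and many of which are NRF2 targets in human cells, were lower in PC3 in 2 cases and higher in 2, and 1 was not called. AKR1B1, aldose reductase, had 0.201 and 0.180 RPKM (29 and 22 counts) in the PC3 circ0003553 and control libraries, against 28.0 and 34.1 RPKM (3730 and 4747 counts) in those of DU145. It was 153-fold lower in PC3, the widest difference of any member tested (log2 fold change -7.25 ± 0.16, SE, n = 2 libraries per line; adjusted p = 5.5e-14, edgeR's quasi-likelihood test). Pseudogenes named after AKR1B1 held 10 and 14 counts in PC3 circ0003553 and control and 8 and 16 counts in those of DU145. AKR1C1 had 330 and 235 counts in PC3 circ0003553 and control, against 50 and 128 counts in DU145 circ0003553 and control. It was 3.49-fold higher in PC3 (1.80 ± 0.27, adjusted p = 3.35e-05 in the same test). The log2 fold change of AKR1C1 was 2.54 without the DU145 control library and 1.29 without the DU145 circ0003553 library. AKR1C1, AKR1C2 and AKR1C3 are close copies of each other, so reads may have been shared or lost between them and their counts are uncertain.

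AKR1C2 had 34 and 16 counts in the PC3 circ0003553 and control libraries, against 28 and 125 counts in those of DU145. Its groups overlapped, and the DU145 control library alone stood high. The call (log2 fold change -1.37 ± 0.48, SE, n = 2 libraries per line; adjusted p = 0.0212, edgeR's quasi-likelihood test) was lost in 8 of 12 alternatives, with -0.12 and an adjusted p of 0.847 without the DU145 control library, -2.00 (0.0621) without the PC3 circ0003553 library and -1.18 (0.178) without the PC3 control library, while without the DU145 circ0003553 library it held at -2.17. AKR1C3, which makes testosterone from androstenedione, was called higher in PC3 at 0.62 ± 0.24 (adjusted p = 0.0326), but its groups overlapped and the call was lost in 9 of 11 alternatives. Without the PC3 circ0003553, PC3 control or DU145 circ0003553 library it was 0.40, 0.73 and 0.20, and without the DU145 control library it was 1.13 and called. AKR1B10 had 35 and 40 counts in PC3 circ0003553 and control, against 28 and 112 counts in those of DU145, and was not called (-0.67 ± 0.36, adjusted p = 0.117). Its value was 0.47 without the DU145 control library and -1.42, then called (adjusted p = 0.00356), without the DU145 circ0003553 library.

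Of the iron genes 2 were lower and 2 higher in PC3, and FTH1 was not called (log2 fold change -0.08 ± 0.11, SE, n = 2 libraries per line; adjusted p = 0.556, edgeR's quasi-likelihood test; 0.04 without the DU145 control library). NCOA4, the receptor that carries ferritin to the lysosome, had 8.75 and 6.61 RPKM in the PC3 circ0003553 and control libraries, against 19.1 and 17.9 RPKM in those of DU145, and was 2.31-fold lower in PC3 (-1.21 ± 0.11, adjusted p = 1.41e-07). TFRC, the transferrin receptor through which cells take up iron, was higher in PC3, with 4542 and 4697 counts in PC3 circ0003553 and control, against 2986 and 3306 counts in DU145 circ0003553 and control (0.66 ± 0.10, adjusted p = 4.47e-05). SLC40A1, the iron exporter ferroportin, had 25 and 36 counts in PC3 circ0003553 and control, against 0 and 6 counts in those of DU145. It passed the filter only through PC3, where it is high, so its call is fixed by that choice and gives no support, and its fitted value moved between 2.48 and 7.96 with 1 DU145 library left out. FTL, the light chain of ferritin, was called lower in PC3 at -0.50 ± 0.15 (adjusted p = 0.00884), a call lost without the PC3 control library (-0.40, 0.149), without the DU145 control library (-0.20, 0.199), with DESeq2 (0.082) and with no filter on low counts (0.0993), while without the DU145 circ0003553 library it held at -0.79.

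ACSL4 and LPCAT3, which together place polyunsaturated fatty acids in phospholipids and so supply what ferroptosis oxidises, were both lower in PC3. ACSL4 had 4.46 and 3.79 RPKM in the PC3 circ0003553 and control libraries, against 6.99 and 6.39 RPKM in those of DU145 (log2 fold change -0.63 ± 0.11, SE, n = 2 libraries per line; adjusted p = 0.000114, edgeR's quasi-likelihood test). LPCAT3 had 4.36 and 3.98 RPKM in PC3 circ0003553 and control, against 7.99 and 7.33 RPKM in DU145 circ0003553 and control (-0.81 ± 0.11, adjusted p = 1.62e-05). The groups did not overlap for either gene. EMG1, which shares 65.6% of the LPCAT3 exon bases, had 2527 and 2229 counts in PC3 circ0003553 and control, against 3475 and 3944 counts in those of DU145, and its part in the LPCAT3 values was not tested.

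Other genes of these pathways, outside the 38, were taken from lists by function, chosen with earlier results of these data known. Their results, here and for the plasmid, are therefore no independent support for those of the members. Their counts, here and in the next paragraph, stand beside 65.9% called among all genes tested, 32.8% lower and 33.1% higher in PC3. Several lists lay near that share, such as the other ferroptosis regulators (72.7% called) and the other aldo-keto and carbonyl reductases (71.4%). Of 23 other NRF2 targets tested 19 were lower and 2 higher in PC3, with a median log2 fold change of -0.90 (edgeR's quasi-likelihood test, as above). The counts of these lists include genes that reached the filter in 1 line only, named below, whose direction the filter fixed. The lowest were TRIM16L, a relative of the ubiquitin ligase gene TRIM16, which was 5.25-fold lower in PC3 (3.19 and 2.97 RPKM in PC3 circ0003553 and control, against 15.1 and 19.2 RPKM in those of DU145), and ABCC3, an exporter of conjugates, 3.90-fold lower. The 2 that were higher were PIR (1.32-fold) and BLVRB, a biliverdin reductase (1.24-fold). Of 17 NRF2 partners and regulators 7 were higher and 2 lower in PC3, with BACH2, a repressor of the same element type, 18.4-fold higher, AMER1 higher by 1.64 on the log2 scale, and the small MAF gene MAFG 1.48-fold and the ubiquitin ligase gene TRIM21 1.25-fold lower. BACH2 had 426 and 276 counts in PC3 circ0003553 and control, against only 20 counts in each DU145 library. Genes measured in the same libraries are not replicates of each other.

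Among 26 other glutathione genes 13 were lower and 6 higher in PC3. GSTM1, a transferase gene that many people lack, was 29.5-fold lower, with 13 and 6 counts in the PC3 circ0003553 and control libraries, against 245 and 378 counts in those of DU145, and GPX3, a secreted peroxidase, was 18.5-fold lower. GSTM2 and GLRX, a glutaredoxin, were 6.15-fold and 5.34-fold higher. The fold of GPX3 rests on 44 and 15 counts in PC3 circ0003553 and control, and that of GSTM2 on 40 and 109 counts in DU145 circ0003553 and control. Of 15 other thioredoxin and antioxidant genes 7 were higher and 5 lower, among them TXNIP, which binds thioredoxin (8.12-fold higher), PRDX6 (3.84-fold higher), the mitochondrial reductase TXNRD2 (4.82-fold lower) and TXNRD3 (1.92-fold lower). TXNIP had only 70 and 22 counts in DU145 circ0003553 and control. Of 17 other iron genes 11 were lower and 3 higher, with CISD1 2.02-fold and the metalloreductase STEAP3 1.61-fold higher, FBXL5, an iron-sensing ligase subunit, 5.23-fold and the mitochondrial iron importer SLC25A37 3.54-fold lower. Of 22 other ferroptosis regulators 10 were higher and 6 lower, with HSPB1 2.86-fold and ACSL1 2.39-fold higher, the desaturase SCD 6.70-fold lower and SAT1 3.48-fold lower. Of 7 other aldo-keto and carbonyl reductases 3 were higher and 2 lower, with CBR4 2.34-fold and AKR1A1 1.35-fold higher and AKR7A2 1.58-fold lower, and AKR1E2, called lower, had 3 and 2 counts in PC3 circ0003553 and control, against 324 and 272 counts in those of DU145. In these lists AKR1E2, ABCG2, ALDH3A1, CYP4F11, GPX7, GGT5 and SOD3 reached the filter in 1 line only, the last in PC3 and the others in DU145. GSTM1 reached it in 1 of the 2 PC3 libraries. Calls of these genes are no support for a direction, and the counts of the lists were not remade without them. Of 5 other pentose phosphate genes PGLS and RPE were higher in PC3 and H6PD (2.42-fold) and SHPK (2.09-fold) lower.

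**Figure D3:**
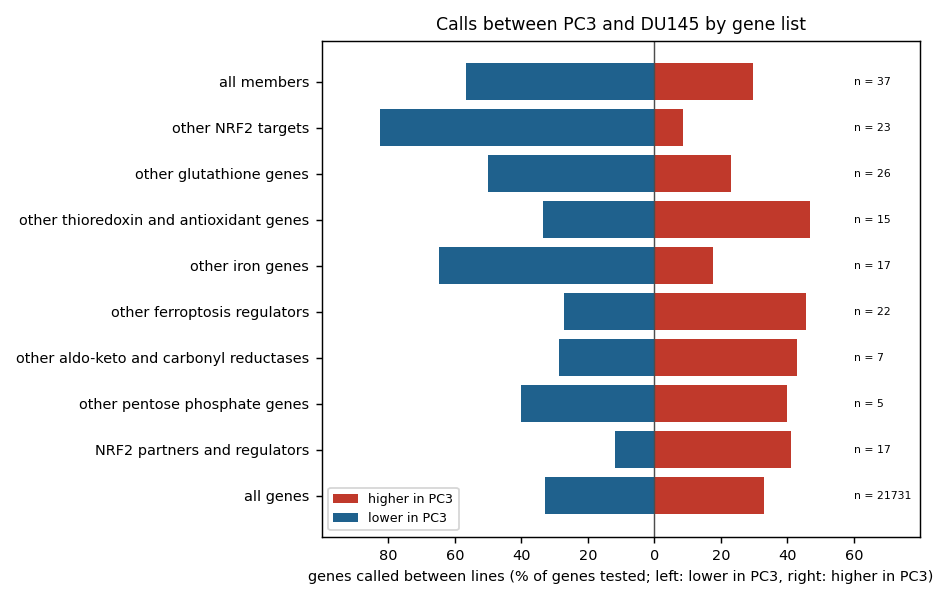
Share of the genes tested in each list that the edgeR fit called lower (blue, left) or higher (red, right) in PC3 against DU145, with the number tested. All genes stand at 32.8% lower and 33.1% higher, and the 37 members at 56.8% lower and 29.7% higher. The 23 other NRF2 targets stand at 82.6% lower and 8.70% higher. The shares of the members and of other lists hold genes that reached the filter only in PC3 or only in DU145. The filter fixed the direction of those genes, and the shares of the lists outside the members were not remade without them.

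The second comparison set the circ0003553 plasmid against the control plasmid, which is the contrast the study was built on, with the cell line as a block. No member passed the test across the lines: 0 of 37 were called, against 0.465% of all genes (101 of 21731; 0.396% higher and 0.0690% lower with circ0003553), and DESeq2 and limma-voom also called 0 members. At an unadjusted p under 0.05 there were 8 members (21.6%), against 8.88% of all genes. TXN came nearest, with 0.123 as its adjusted p (quasi-likelihood test of edgeR), at a log2 fold change of -0.39 ± 0.10 (SE, n = 2 libraries per plasmid), with 3330 and 3558 counts in the PC3 circ0003553 and control libraries and 4304 and 6180 counts in those of DU145. Its ratio was below 1 in both lines, and over the alternatives its adjusted p was 0.0658 at the lowest. The other 7 were AKR1B10 (-1.26), AKR1C2 (-1.07), OSGIN1 (-0.45), NQO1 (-0.32), GCLC (-0.30), CBR1 (-0.25) and NCOA4 (0.25), with adjusted p-values of 0.246 to 0.521. NFE2L2 and KEAP1 had log2 fold changes of 0.08 ± 0.10 and -0.09 ± 0.11 (adjusted p = 0.899 and 0.902). GPX4, SLC7A11 and ACSL4 had -0.03 ± 0.10, 0.17 ± 0.12 and 0.19 ± 0.11 (adjusted p = 0.974, 0.749 and 0.677).

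A fit across lines does not show what happened in each, so the ratio of the circ0003553 to the control library is given per line, as TMM-scaled counts with 95% exact (Clopper-Pearson) intervals from halved counts. These cover counting error only, there is no replicate in a line, and no test was made. In PC3 14 of 37 members with at least 50 counts over the libraries of the line had a ratio below 1 (37.8%, against 49.9% of all genes), 1 was at least 1.5-fold lower (SLC40A1, against 2.63% of all genes) and 1 at least 1.5-fold higher (AKR1C2, against 3.69%). SLC40A1 had 25 and 36 counts in PC3 circ0003553 and control, a ratio of 0.578 with an interval that held 1 (0.271 to 1.30). In DU145 the members lay mostly below 1. Of 35 members with that many counts 26 had a ratio below 1 (74.3%, against 49.2% of all genes), 7 were at least 1.5-fold lower (against 5.04% of all genes) and 0 were at least 1.5-fold higher (against 4.72%). The median log2 ratio in DU145 was -0.24 over the members, against 0.01 over all genes. The median ratio of the members was 1.04 in PC3 and 0.849 in DU145.

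Among members with at least 50 counts, AKR1C2, AKR1B10, AKR1C1 and AKR1C3 had the lowest ratios in DU145. In PC3 the ratios were 1.77 for AKR1C2, 0.729 for AKR1B10, 1.17 for AKR1C1 and 1.26 for AKR1C3, and each interval held 1. In DU145 AKR1C2 had 28 counts in the circ0003553 and 125 in the control library, a ratio of 0.241 (0.123 to 0.431). AKR1B10 had 28 and 112 counts in DU145 circ0003553 and control, a ratio of 0.269 (0.138 to 0.489). AKR1C1 and AKR1C3 had ratios of 0.420 and 0.525 in DU145. All 4 have few counts, and the AKR1C genes may share reads. AKR1B1, with far more counts in DU145, had a ratio of 0.844 there (0.794 to 0.897).

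The members named next were picked because they lay below 1 in DU145, so their direction there is a description only; in PC3 their ratios were 0.890 to 1.19. NQO1 had 2978 and 2622 counts in the circ0003553 and control libraries of PC3, a ratio of 0.946 (0.878 to 1.02). In DU145 GSR had 2691 counts in the circ0003553 and 4434 in the control library, a ratio of 0.652 (0.609 to 0.698), and FTL had 2759 and 4463 counts, a ratio of 0.664 (0.620 to 0.710). UGDH and NQO1 lay just short of 1.5-fold lower, at 0.680 (0.648 to 0.715) and 0.684 (0.664 to 0.705), the second from 14361 counts in the circ0003553 and 22542 in the control library of DU145. OSGIN1 had 288 and 553 counts, a ratio of 0.559 (0.453 to 0.685). GCLC, SRXN1, CBR1, PRDX1, GSTM3 and KEAP1 had ratios of 0.727, 0.779, 0.793, 0.801, 0.754 and 0.836 in DU145, each with an interval below 1.

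Other members lay above 1 in DU145. TXNRD1, the most counted of the 38, had a ratio of 1.04 (1.02 to 1.06) in PC3 and of 1.30 (1.28 to 1.32) in DU145, there from 89222 counts in the circ0003553 and 73559 in the control library. SLC7A11 had a ratio of 1.02 in PC3 (0.892 to 1.15) and 1.25 in DU145 (1.11 to 1.41), and ABHD4 1.18 in PC3 and 1.21 in DU145. ACSL4, LPCAT3 and NCOA4 lay above 1 in both lines, at 1.16, 1.08 and 1.30 in PC3 and 1.13, 1.12 and 1.10 in DU145. GPX4 stood at 0.982 in PC3 and 0.983 in DU145, and HMOX1 at 1.10 in PC3 and 0.989 in DU145, with intervals that held 1. TXN lay below 1 in both, at 0.779 in PC3 (0.729 to 0.834) and 0.748 in DU145 (0.708 to 0.791), and TFRC at 0.805 in PC3 and 0.970 in DU145. SLC40A1 had 0 counts in the circ0003553 and 6 in the control library of DU145, too few to give a direction (upper limit of the ratio 2.60).

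**Figure D4:**
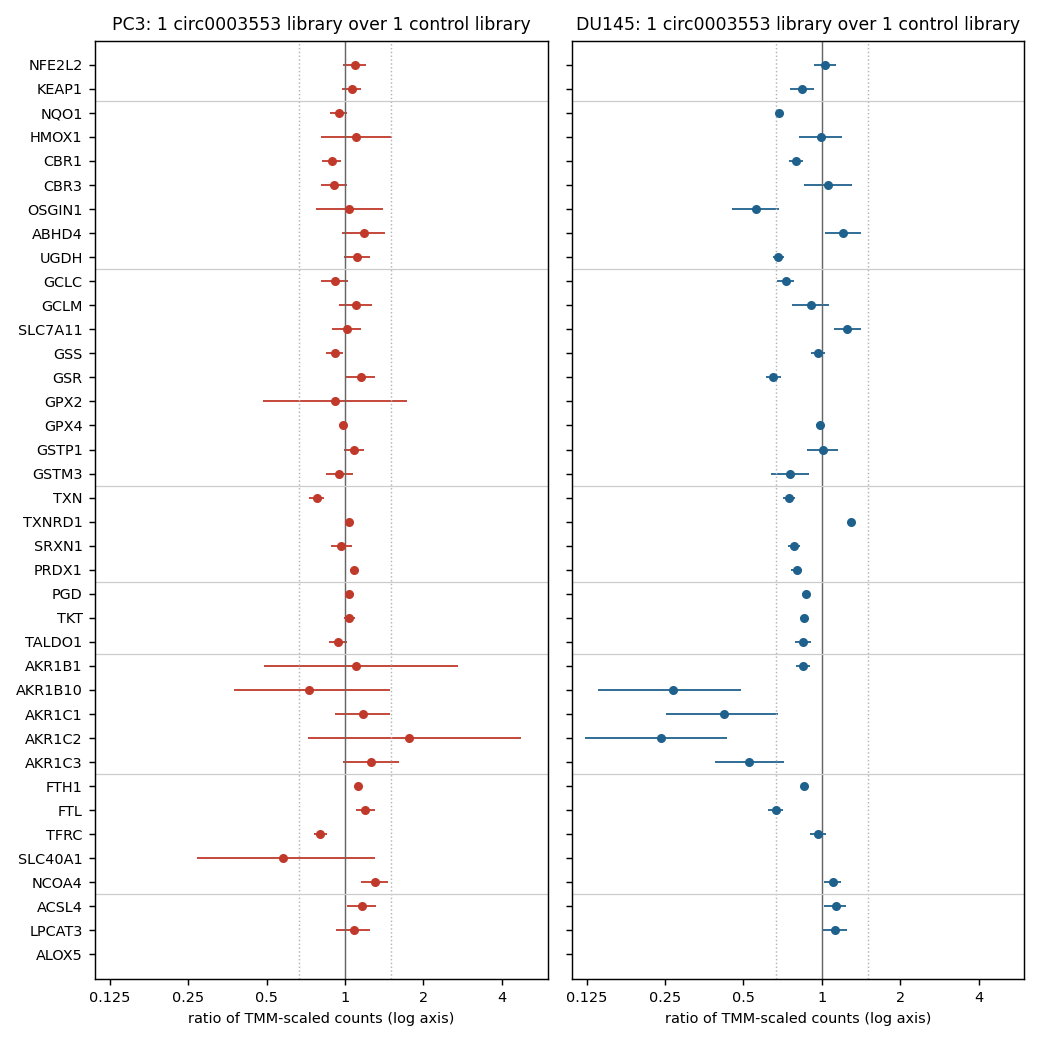
Ratio of the circ0003553 to the control library of each line for members with at least 50 counts, as TMM-scaled counts on a log axis, PC3 left and DU145 right. Bars are 95% exact intervals from halved counts, for counting error only, and dotted lines mark 1.5-fold; in DU145 AKR1C2, AKR1B10, AKR1C1, AKR1C3, OSGIN1, GSR and FTL lie below the lower dotted line.

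Of 35 members with at least 50 counts in each line, 15 had a ratio above 1 in PC3 and below 1 in DU145 (42.9%, against 21.5% of all genes), 11 lay below 1 in both, 8 above 1 in both and 1, CBR3, above 1 in DU145 only. The difference between the lines was not tested, since an interaction would leave no residual degrees of freedom. Of the other NRF2 targets 6 of 20 lay below 1 in PC3 and 21 of 23 in DU145, with a median ratio of 1.06 in PC3 and 0.807 in DU145. Of the other ferroptosis regulators 10 of 21 lay below 1 in PC3 and 11 of 21 in DU145. Of the 16 NRF2 partners and regulators with enough counts in DU145, 4 lay below 1. Across lines 0 of the 132 genes of these lists were called for the plasmid by edgeR, against 0.465% of all genes. An unadjusted p under 0.05 in the same test was found for 20 of them, against 8.88% of all genes. Mitochondrially encoded genes took 6.34% and 6.88% of counts in the PC3 circ0003553 and control libraries, and 4.96% and 6.28% in those of DU145, and the part of this or of any other difference between those 2 DU145 libraries was not tested. In bulk libraries such as these, fewer cells with a transcript and less of it per cell cannot be told apart.

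**Figure D5:**
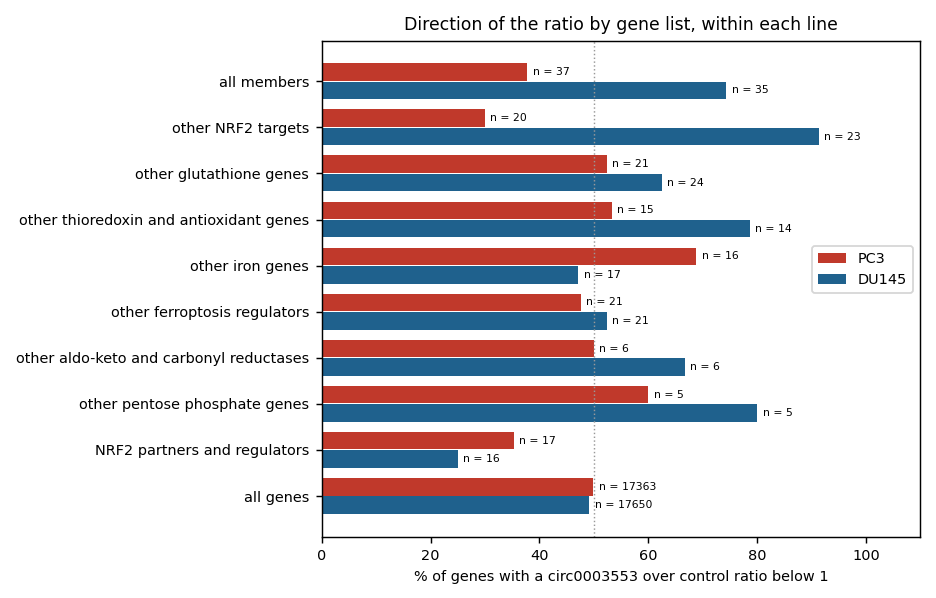
Share of the genes in each list whose circ0003553 over control ratio was below 1, among genes with at least 50 counts, in PC3 (red, upper bar) and DU145 (blue, lower bar), with the number of genes. All genes stand near 50% in both lines, the members at 37.8% in PC3 and 74.3% in DU145, and the other NRF2 targets at 30.0% in PC3 and 91.3% in DU145.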

How the data were processed

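The deposited files hold a count for each gene and library, as whole numbers, and the authors' RPKM for the same genes, with exon coordinates. The build is hg38 per the submitters' processing notes, which also list edgeR 3.12.1, Subread 1.5.1, featureCounts and Trimmomatic 0.36 without saying what each did; per the labels' protocols, libraries were stranded and carried molecular identifiers of 8 bases. Not given in the sources used here are the aligner, the strand setting and whether identifiers were collapsed. The deposited RPKM equalled count divided by exon length and library total (largest relative difference 8.7e-14). The columns carrying NC were taken as control and those carrying RCAN3 as circ0003553.

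Lines and plasmids were compared in 1 additive fit with edgeR 4.0.16 (R 4.3.3): 21731 genes kept by filterByExpr with the plasmid as group, TMM scaling, quasi-likelihood F tests and Benjamini-Hochberg adjustment at 0.05, with SE taken as the log2 fold change over the square root of F. The pairing of plasmids within a line comes from the labels. Alternatives used DESeq2 1.42.0, limma 3.58.1 (voom), legacy dispersions, no filter, total counts, halved counts, genes sharing no exon base, no covariate and each library left out. The fit was tested on simulated data: of 200 genes changed 2-fold among 21731, it recovered 199 for the line, with 10 false calls, and 197 for the plasmid, with 13. In the simulation every gene had the same dispersion and the changed genes had a mean log2 CPM above 2. All other genes were equal between the libraries, and no plasmid effect differed between lines. Those settings differ from these data, so the simulation does not give their error rate. Named in full were members called at least 2-fold between lines and KEAP1, NFE2L2, GPX4, SLC7A11 and ACSL4, and of each other list the 2 highest and 2 lowest called genes whose mean log2 CPM reached 2. The members, lists and tests were chosen with earlier results of these data known.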

Additional observations from a re-analysis of the deposited data

Results flagged for a closer look

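Members whose plasmid ratio pointed opposite ways in the lines, with intervals from halved counts that excluded 1 in both, were GSR, PRDX1, FTH1 and FTL. The ratio of the circ0003553 to the control library was 1.15 in PC3 and 0.652 in DU145 for GSR, the glutathione reductase. PRDX1, a peroxiredoxin, had 1.08 in PC3 and 0.801 in DU145. The ferritin chains pointed the same ways, FTH1 at 1.12 in PC3 and 0.854 in DU145 and FTL at 1.19 in PC3 and 0.664 in DU145. FTH1 shares exon bases with BEST1, and 19 pseudogenes named after FTH1 held 2.43% to 3.61% as many counts as it did. The intervals cover counting error only, so a small ratio can exclude 1 in a gene with many counts. The share of all genes that meet this rule is not given here, so these 4 of 38 members are a description only. The difference between the lines was not tested, and each ratio rests on 1 library per plasmid.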

How the results depend on the processing

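Of the 32 members called between lines, 23 stayed called with the same sign in every alternative that tested them, and the other 9 are named with their values in the results. SLC40A1 is among the 23, but it passed the filter only through PC3, so its call gives no support. The count of members called was 25 to 31 in the other settings, 26 to 31 with 1 library left out (the lone library of a line then being taken to vary like the others), and 19 (7 higher, 12 lower, among 7051 genes called in all) where the 16 members that share exon bases are not tested. Signs turned only near 0 or where 1 library decides. PGD was -0.06 with total counts, -0.01 with halved counts, -0.02 among genes sharing no exon base and -0.09 to 0.11 with 1 library left out. SLC7A11 was -0.22 to 0.10, FTH1 -0.19 to 0.04 and AKR1B10 -1.42 to 0.47 with 1 library left out. For the plasmid, 0 members were called in every setting, while all genes called numbered 62 with DESeq2, 53 with legacy dispersions, 47 among genes sharing no exon base, 26 with limma-voom, 9 with no filter and 0 without the cell line block. GCLM, at -0.00337, was 0.00296 with no filter, 0.01 among genes sharing no exon base and without the block, and 0.00192 with limma-voom. In PC3 the 2 members at least 1.5-fold apart, 1 of them lower, became 0 with halved counts, since they fell under 50 counts; in DU145 the 7 members at least 1.5-fold lower numbered 7 to 9. Leaving out a library from the plasmid comparison leaves the ratio of the other line, with no residual degree of freedom. A count of 0 allows 3 counts, or 0.076 to 0.0897 CPM.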

Other observations

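Ratios of level between partner genes inside a library do not depend on library scaling. The CBR3 level was 1.04 and 1.02 times the CBR1 level in the PC3 circ0003553 and control libraries, and 0.214 and 0.161 times in those of DU145. The TXNRD1 level was 2.40 and 1.79 times the TXN level in PC3 circ0003553 and control, and 3.53 and 2.03 times in DU145 circ0003553 and control, so in each line the circ0003553 library had the higher ratio. The FTH1 level was 6.07 and 6.50 times the FTL level in PC3 circ0003553 and control, and 5.34 and 4.15 times in those of DU145. CTD-2033A16.1, a gene on the other strand that shares 17.7% of the NQO1 exon bases, had 57 and 49 counts in PC3 circ0003553 and control, and 561 and 1116 counts in DU145 circ0003553 and control.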
